A study of Mus musculus with 11 samples.

Results

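The metallothioneins are small cysteine-rich proteins that hold zinc and copper. They are described here in 4 mouse medulloblastoma models through Mt1, Mt2 and Mt3, together with Mtf1, which encodes the zinc-sensing transcription factor that switches metallothionein genes on. These 4 genes, of 38406 in the count table, were chosen by symbol with their counts in these libraries already known, so their levels and fold changes are given as a description, without a test. All 4 passed the filter on low counts that left 15228 genes for testing, Mt3 only through 2 libraries with more than 20 counts. The 11 libraries came from fresh-frozen cerebellar tumours of CD1 mice and were read by 3′ mRNA sequencing, in which each transcript gives a tag from its 3′ end.

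By their labels, all 4 tumour groups carried MYC. MYC/Gfi1 tumours (n = 2) carried MYC and Gfi1, and MYC/Otx2 tumours (n = 3) carried MYC and Otx2, both labelled constitutive and both called Group 3 medulloblastoma models. S100b-cell tumours (n = 3) had MYC and Gfi1 too, with expression conditional on S100b-positive cells. In the N1ICD tumours (n = 3) MYC and Gfi1 were joined by N1ICD, the active intracellular part of Notch1, with expression conditional on Math1-positive cells. The labels give no age, no promoter and no tumour-free cerebellum, and they do not state whether replicates are separate mice, so the spread between replicates may be partly technical. S100b is a glial gene, and no library in the S100b-cell group had more than 63.8 CPM of it. Atoh1, the gene for Math1, had 0 counts in all N1ICD libraries, and the expression of a past progenitor state cannot be read from bulk tumour RNA.

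Mt1 and Mt2 are made by most tissues and are induced by zinc, by cadmium, by glucocorticoids and by oxidative stress. In the brain they are known mainly from astrocytes and other glia, while Mt3 is the form associated with the nervous system and Mt4 with stratified squamous epithelium. When cellular zinc rises, the protein made from Mtf1 enters the nucleus and binds short metal response elements in promoters, and newly made metallothionein then takes up zinc. Zinc itself enters the cytosol through SLC39 importers and leaves it through SLC30 exporters.

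The metallothionein genes stand side by side on mouse chromosome 8, all transcribed in the same direction and all with 3 exons (GENCODE M21, build mm10). Mt4 (94137197 to 94139031) comes first, followed by Mt3 (94152607 to 94154146), Mt2 (94172664 to 94173568) and Mt1 (94179082 to 94180327). The gap between Mt2 and Mt1 is 5.51 kb, that between Mt3 and Mt2 18.52 kb and that between Mt4 and Mt3 13.58 kb. Mtf1 is on chromosome 4 (124802104 to 124849800) and its transcript 201 has 11 exons. The annotation places an antisense gene (94170748 to 94173412) over part of Mt2. No source used here gives the strand setting of the counting, so how reads in the overlap were counted is not known. That gene was not analysed here. The last 300 bases of each member's transcript gave 251 stretches of 50 bases, and 0 of them occurred in the transcripts of another annotated gene.

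The promoters of Mt1, Mt2 and Mt3 are shown because the metal response element is the feature by which Mtf1 is known to act on these genes. Each sequence is the 250 bases before the RefSeq start (GRCm38.p6, plus strand), at chr8:94178839-94179088 for Mt1, chr8:94172368-94172617 for Mt2 and chr8:94152357-94152606 for Mt3. Capitals mark the letters TGCACNC or TGCGCNC, the core of the metal response element, searched on both strands.
Mt1: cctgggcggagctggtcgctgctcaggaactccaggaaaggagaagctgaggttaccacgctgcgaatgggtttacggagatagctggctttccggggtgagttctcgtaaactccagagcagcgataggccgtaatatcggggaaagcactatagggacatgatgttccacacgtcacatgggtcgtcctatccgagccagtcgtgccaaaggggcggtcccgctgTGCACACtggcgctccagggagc
Mt2: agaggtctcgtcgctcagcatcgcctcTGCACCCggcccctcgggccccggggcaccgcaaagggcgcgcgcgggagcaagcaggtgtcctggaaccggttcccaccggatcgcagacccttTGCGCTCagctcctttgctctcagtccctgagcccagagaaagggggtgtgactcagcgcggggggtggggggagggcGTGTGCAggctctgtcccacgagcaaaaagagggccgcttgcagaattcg
Mt3: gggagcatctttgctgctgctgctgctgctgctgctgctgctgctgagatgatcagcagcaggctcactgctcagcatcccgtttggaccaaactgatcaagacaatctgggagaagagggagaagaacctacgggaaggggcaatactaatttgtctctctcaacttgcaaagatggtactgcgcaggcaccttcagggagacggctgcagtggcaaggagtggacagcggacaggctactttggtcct

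Counted over 300 bases, from 250 before to 50 after the RefSeq start, the core matched 3 times at Mt1, 4 times at Mt2 and 1 time each at Mt3 and Mt4. In the Mt1 window the matches began at base -23 before the start and at bases 3 and 21 after it. In the Mt2 window they began at -223 and -128 on the plus strand and at -50 and 5 on the minus strand. The window of Mtf1 held 0 matches. Of 32817 RefSeq promoter windows of the same length, 25.7% held at least 1 match, 1.968% at least 3 and 0.518% at least 4. The Mt2 window also held the antioxidant response letters TGACNNNGC at -79, which 12.4% of windows hold, and the letters TGGGAA, the core recognised by the Notch effector RBPJ, on the minus strand at -151, which 25.6% of windows hold. The Mt1 window held neither of these. Each window is tied to the RefSeq start, and sequence outside it was not searched. The counts therefore do not compare whole promoters, and a core or element outside a window would be missed. A match in a window describes its letters and was not set against binding data.

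Counts under the mouse symbols of the oncogenes did not all follow the labels, and which of the introduced sequences the 3′ tags could count is not known here. Otx2 was at 13.7 to 96.96 CPM in the MYC/Otx2 libraries and at 0 to 13.7 CPM in the others. Myc was at 11.04 to 128 CPM in the constitutive groups, at 2.01 to 4.21 CPM in the S100b-cell and at 0.429 to 2.43 CPM in the N1ICD libraries. Gfi1 was at 0.697 to 13.9 CPM in the libraries labelled with it and at 0 to 0.283 CPM in the MYC/Otx2 libraries. Notch1 was at 0.349 to 2.43 CPM in the N1ICD libraries and at 0 to 0.453 CPM in the others. Library totals ran from 2.58 to 15.19 M counts, lowest in the N1ICD and highest in the S100b-cell libraries, with 14987 to 19834 genes seen in each. Genes encoded by the mitochondrion took 5.18% to 6.00% of counts in the libraries of the constitutive groups, 14.7% to 18.5% in the S100b-cell libraries and 23.2% to 27.6% in the N1ICD libraries. Library names in the labels follow a separate style for the S100b-cell group, for the N1ICD group and for the constitutive groups together, so, apart from MYC/Gfi1 against MYC/Otx2, set and group cannot be told apart. Levels are in CPM, counts scaled to the library's adjusted total of the genes tested. In RNA from whole tumours, fewer cells of a type and less RNA per cell cannot be told apart.

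Mt1 was an abundant transcript in 3 of the 4 models. It was at 1085 and 1729 CPM in the MYC/Gfi1 tumours and at 1389, 1512 and 1400 CPM in the S100b-cell tumours. In the N1ICD tumours it was at 695, 326 and 855 CPM. In the MYC/Otx2 tumours it was at 162, 232 and 83.8 CPM. No MYC/Otx2 library reached the level of any other library, and every N1ICD library lay above every MYC/Otx2 library and below every library of the groups with MYC and Gfi1 alone. Ranked by count within each library, Mt1 was between the 29th and the 78th gene in the MYC/Gfi1 and S100b-cell libraries and between the 635th and the 2124th in the MYC/Otx2 libraries.

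As means, Mt1 was at 1434 ± 68.2 CPM in the S100b-cell tumours (SD, n = 3), 1407 ± 455 CPM in the MYC/Gfi1 tumours (SD, n = 2), 625 ± 271 CPM in the N1ICD tumours (SD, n = 3) and 159 ± 74.4 CPM in the MYC/Otx2 tumours (SD, n = 3). The means of the S100b-cell and MYC/Gfi1 groups differed by less than the spread between the MYC/Gfi1 libraries. The S100b-cell libraries lay within 1.09-fold of each other, against 2.77-fold in the MYC/Otx2 and 2.62-fold in the N1ICD group.

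Mt2, whose protein is the near twin of that of Mt1, separated the models differently. It was at 705 and 577 CPM in the MYC/Gfi1 tumours and at 581, 1029 and 760 CPM in the S100b-cell tumours. It was at 54.2, 114 and 45.4 CPM with MYC/Otx2. In the N1ICD tumours it was at 141, 49.5 and 103 CPM, within or next to the MYC/Otx2 range and far from the other groups with MYC and Gfi1. The libraries of the N1ICD and the MYC/Otx2 tumours overlapped, and both groups lay below every MYC/Gfi1 and S100b-cell library. The order of the means was 790 ± 225 CPM (SD, n = 3) in the S100b-cell, 641 ± 90.0 CPM (SD, n = 2) in the MYC/Gfi1, 98.01 ± 46.2 CPM (SD, n = 3) in the N1ICD and, lowest, 71.3 ± 37.5 CPM for MYC/Otx2 tumours (SD, n = 3). Neither the upper nor the lower pair in this order differed beyond the spread between libraries.

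**Figure D1:**
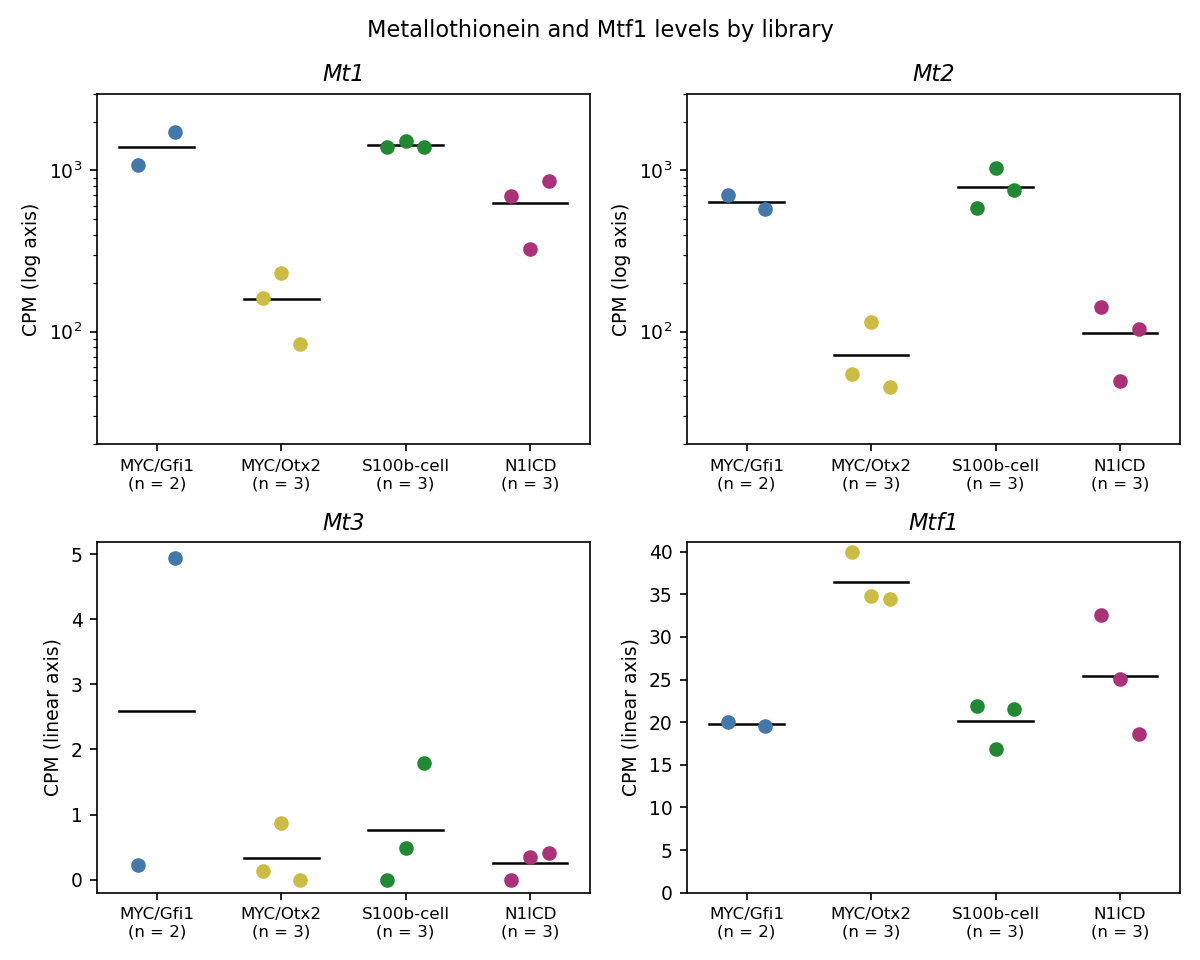
Level of Mt1, Mt2, Mt3 and Mtf1 in CPM in each of the 11 libraries (points, in replicate order) with the group mean (line); the axes of Mt1 and Mt2 are logarithmic, those of Mt3 and Mtf1 linear. The N1ICD libraries lie between the groups for Mt1 (326 to 855 CPM) but beside the MYC/Otx2 libraries for Mt2 (49.5 to 141 CPM), and Mtf1 is highest in the MYC/Otx2 libraries (34.4 to 40.0 CPM).

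The balance of Mt1 and Mt2 set the N1ICD tumours apart from the other 8 libraries. Tags from the 3′ end are not divided by length, so the ratio of their counts serves to compare libraries and not the absolute amounts of the transcripts. In the N1ICD libraries there were 4.91, 6.59 and 8.29 Mt1 counts for each Mt2 count. The MYC/Gfi1 libraries had 1.54 and 2.99, the MYC/Otx2 libraries 2.98, 2.03 and 1.84 and the S100b-cell libraries 2.39, 1.47 and 1.84. No N1ICD library overlapped a library of another group. By their names the N1ICD libraries are also a separate set, so this difference in the ratio cannot be told apart from the set. The MYC/Gfi1, MYC/Otx2 and S100b-cell groups overlapped with each other, although the summed counts of both genes differed between those libraries, from 0.0134% of the library in a MYC/Otx2 tumour to 0.248% in an S100b-cell tumour.

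As a share of the counts of both genes, Mt1 took 83.1% (95% Wilson interval 81.3 to 84.7), 86.8% (84.7 to 88.7) and 89.2% (87.9 to 90.4) in the N1ICD libraries. In the other 8 libraries the share was 59.5% to 74.96%. The smallest pair of counts was 936 for Mt1 and 142 for Mt2 in N1ICD replicate 2, and the intervals cover counting error only. The spread between replicates was wider than these intervals in each group.

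**Figure D2:**
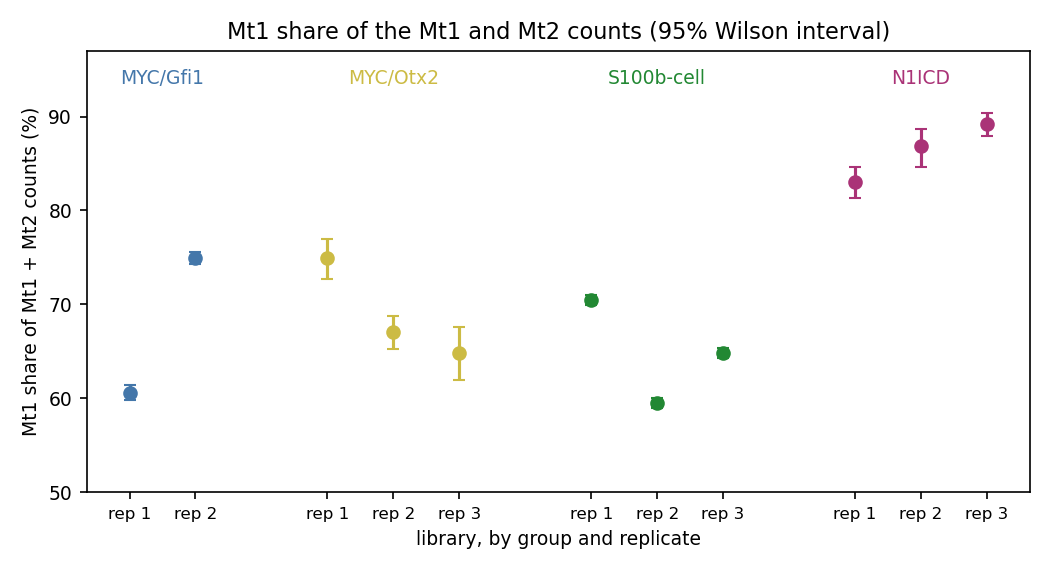
Mt1 as a percentage of the summed Mt1 and Mt2 counts in each library, with the 95% Wilson interval of the count (bars); the vertical axis starts at 50%. The 3 N1ICD libraries lie at 83.1% to 89.2% and the other 8 at 59.5% to 74.96%.

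Mt3, the form associated with the nervous system, was close to the limit of detection. Its counts were 2 and 34 in the MYC/Gfi1 libraries, 1, 7 and 0 in the MYC/Otx2 libraries, 0, 7 and 23 in the S100b-cell libraries and 0, 1 and 1 in the N1ICD libraries. The highest level was 4.94 CPM, in MYC/Gfi1 replicate 2, and 1.80 CPM in S100b-cell replicate 3 came next. No pair of groups was free of overlap. A count of 0 allows up to 3 counts, which is 0.194 to 1.29 CPM over the libraries, and this limit was highest in the N1ICD libraries, the shallowest. Mt4 had 0 counts in all 11 libraries, with the same limits, and was not tested.

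Mtf1, the zinc-sensing activator, was highest where Mt1 and Mt2 were lowest and had a smaller range. It was at 40.0, 34.8 and 34.4 CPM with MYC/Otx2, above every library of the other groups. It was at 20.05 and 19.6 CPM in the MYC/Gfi1 tumours, at 21.9, 16.9 and 21.6 CPM in the S100b-cell tumours and at 32.6, 25.1 and 18.7 CPM in the N1ICD tumours. The means were 36.4 ± 3.11 CPM for MYC/Otx2 and 25.4 ± 6.97 CPM for N1ICD (SD, n = 3 each), 20.1 ± 2.83 CPM in the S100b-cell tumours (SD, n = 3) and 19.8 ± 0.312 CPM in the MYC/Gfi1 tumours (SD, n = 2). The N1ICD libraries overlapped with those of the S100b-cell and MYC/Gfi1 groups. Over library totals without mitochondrially encoded genes, Mtf1 was at 38.3 CPM in N1ICD replicate 1 and at 37.9 CPM in MYC/Otx2 replicate 3. The separation of the MYC/Otx2 from the N1ICD libraries for Mtf1 thus depended on the scaling. The level of an mRNA does not show how much of the factor is active.

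Fold changes were taken from a fit of all 15228 genes in which the 4 groups shared the estimate of spread. For Mt1 and Mt2, the largest differences were those between the MYC/Otx2 tumours and the MYC/Gfi1 or S100b-cell tumours. Against MYC/Gfi1, the log2 change of Mt1 in MYC/Otx2 tumours was -3.14 ± 0.46 (SE) and that of Mt2 -3.17 ± 0.49 (SE), or 8.83-fold and 8.99-fold lower. Between the S100b-cell and MYC/Otx2 tumours, Mt1 differed by 3.17 ± 0.44 and Mt2 by 3.47 ± 0.47 on the log2 scale (SE), 8.998-fold and 11.1-fold higher in the former. Mtf1 in the MYC/Otx2 tumours was 1.83-fold the MYC/Gfi1 level, with a log2 change of 0.88 ± 0.31 (SE), and S100b-cell against MYC/Otx2 tumours gave -0.85 ± 0.27 (SE).

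Between the N1ICD and MYC/Gfi1 tumours, Mt2 differed by -2.71 ± 0.48 (SE) on the log2 scale and Mt1 by -1.17 ± 0.45 (SE), or 6.55-fold and 2.25-fold lower with N1ICD. Between the N1ICD and S100b-cell tumours the values were -3.01 ± 0.46 for Mt2 and -1.20 ± 0.41 for Mt1 (SE), or 8.07-fold and 2.29-fold. Against the MYC/Otx2 tumours the order of the genes turned, with Mt1 at 1.97 ± 0.42 and Mt2 at 0.46 ± 0.43 (SE), or 3.92-fold and 1.37-fold higher. These comparisons share the N1ICD libraries. The S100b-cell and MYC/Gfi1 tumours gave log2 differences of 0.03 ± 0.45 for Mt1, 0.30 ± 0.48 for Mt2 and 0.02 ± 0.30 for Mtf1 (SE), each no larger than its error.

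**Figure D3:**
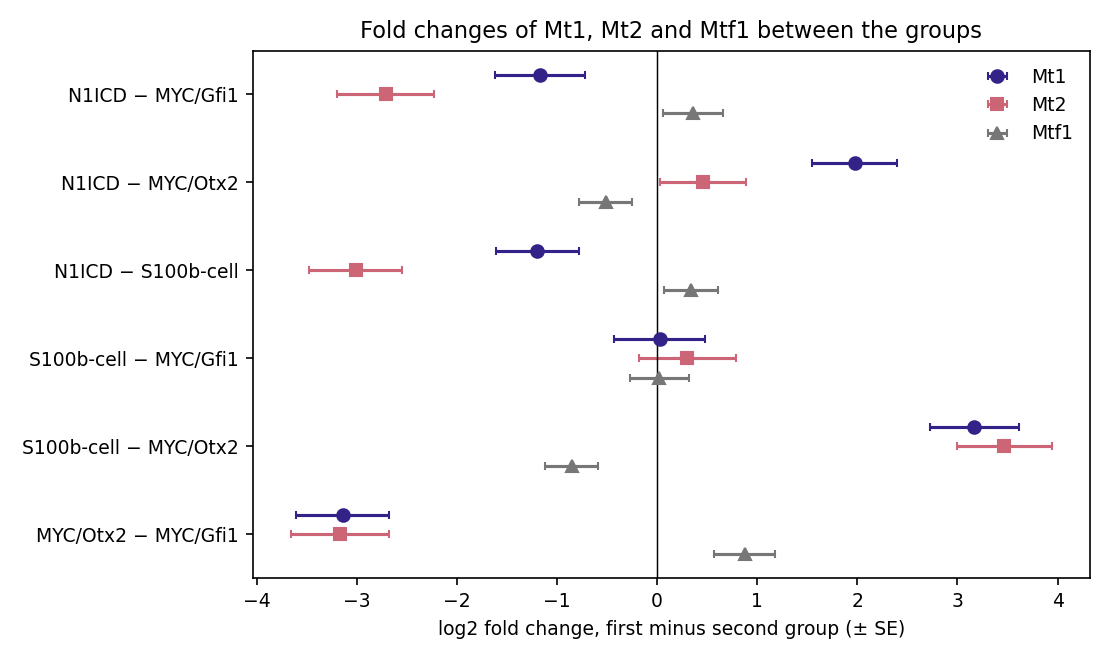
Log2 fold change (first minus second group named, points) of Mt1, Mt2 and Mtf1 with its SE (bars) in the 6 comparisons; the line marks no difference. Mt1 and Mt2 lie together where the N1ICD tumours are not involved (3.17 and 3.47 for S100b-cell minus MYC/Otx2) and apart where they are (-1.17 and -2.71 for N1ICD minus MYC/Gfi1).

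The share of all genes called (edgeR adjusted p under 0.05) gives the background against which the members' counts stand, and nothing is read from those counts because the members were chosen on these contrasts. Of the 4 members, 1 was called between the N1ICD and MYC/Gfi1 tumours (Mt2), where 11.5% of all genes were. Against the MYC/Otx2 tumours, 1 member (Mt1) was called for the N1ICD tumours, where 21.8% of genes were, and 2 members (Mt1 and Mt2) for the S100b-cell tumours, where 17.9% were. Between the N1ICD and S100b-cell tumours, 1 member (Mt2) was called, where 1.21% of genes were. The call of Mt2 in that comparison was lost without S100b-cell replicate 2 or 3 or N1ICD replicate 3. Between MYC/Otx2 and MYC/Gfi1 tumours, 2 members (Mt1 and Mt2) were called, where 5.46% of genes were, and both calls were lost without MYC/Otx2 replicate 1, that of Mt2 also without replicate 3. Between the S100b-cell and MYC/Gfi1 tumours, 0 members were called by edgeR, 0 passed an unadjusted p of 0.05 and 0 were called by DESeq2, where edgeR called 4.35% of genes.

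Libraries of the groups compared did not overlap for Mt1 in 5 of the 6 comparisons, for Mt2 in 4 and for Mtf1 in 3. The share of all tested genes without overlap was 38% between N1ICD and MYC/Gfi1, 41.5% between N1ICD and MYC/Otx2 and 26.1% between N1ICD and S100b-cell tumours. It was 41.3% between S100b-cell and MYC/Gfi1, 50.4% between S100b-cell and MYC/Otx2 and 43.6% between MYC/Otx2 and MYC/Gfi1 tumours. Lack of overlap with 2 or 3 libraries a group was therefore common in these data.

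Over all 11 libraries, the SD of log2 CPM was 1.495 for Mt1 and 1.76 for Mt2, larger than that of 86.3% and 89.6% of 8729 genes. For Mtf1 it was 0.43, larger than that of 20.8%. Within groups the SD was 0.59 for Mt1, 0.61 for Mt2 and 0.25 for Mtf1. Mt1 and Mt2 moved together across the 11 libraries with a Pearson r of 0.877 and a Spearman rho of 0.836. For deviations from the group means the Pearson r was 0.747. Within MYC/Gfi1 the library with more Mt1 had less Mt2, and within N1ICD the highest Mt1 and the highest Mt2 were in different libraries. Mt1 and Mtf1 had a Pearson r of -0.845 across libraries but -0.136 for the deviations from group means, so the inverse relation lay between groups. These values describe libraries that fall into 4 groups and carry no test.

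The genes with the pattern most like a member's over the 11 libraries were ranked by Pearson r of log2 CPM among 8222 genes with a mean of at least 10 CPM. For Mt1 they were Mgll (r = 0.969), which encodes monoacylglycerol lipase, Klf13 (0.965), a zinc finger factor, Mlxipl (0.962), a carbohydrate-responsive factor, Jund (0.946), an AP-1 subunit, and Hspb8 (0.946), a small heat shock protein. Mgll was at 151 CPM in the MYC/Gfi1, 124 CPM in the S100b-cell, 67.6 CPM in the N1ICD and 23.6 CPM in the MYC/Otx2 tumours, the same order as the Mt1 means except that the upper pair was exchanged. For Mt2 they were Mlxipl (0.933), Svip (0.917), Map4k1 (0.915), Fermt1 (0.915) and Zfyve27 (0.914). Svip, an inhibitor of endoplasmic reticulum-associated degradation, was at 84.8 CPM in the S100b-cell, 79.6 CPM in the MYC/Gfi1, 10.7 CPM in the N1ICD and 9.41 CPM in the MYC/Otx2 tumours, the order of the Mt2 means.

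For Mtf1 they were Kcne2 (0.938), Entpd6 (0.937), Rxrg (0.933), Cyp1b1 (0.921) and Crocc (0.919), each highest in the MYC/Otx2 tumours. Rxrg, a retinoid X receptor, was at 181 CPM there and at 13.5 CPM in the N1ICD, 0.990 CPM in the MYC/Gfi1 and 0.0261 CPM in the S100b-cell tumours. For Mt3 they were Cds1 (0.939), Lrrc8a (0.907), S100b (0.907), Nuak1 (0.887) and Gria4 (0.880), a ranking that rests on at most 34 counts of Mt3 a library. With 4 groups, many genes share a pattern of group means, and likeness over 11 libraries says nothing of shared function.

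Astroglial markers were read beside the metallothioneins, since astrocytes are a known source of Mt1 and Mt2. The summed level of 10 markers, all detected in every group, was 561 and 5881 CPM in the MYC/Gfi1, 176 to 1067 CPM in the MYC/Otx2, 83.7 to 402 CPM in the S100b-cell and 91.7 to 3436 CPM in the N1ICD libraries. The S100b-cell libraries, with the highest Mt1 mean, had the narrowest range of this sum and the lowest value in it. In S100b-cell replicate 1, which had that lowest sum, Gfap was at 1.04 CPM, Aqp4 at 0.0647 CPM, S100b at 1.23 CPM, Aldh1l1 at 1.29 CPM and Aldoc at 2.72 CPM, while Gja1 was at 28.7 CPM and Slc1a3 at 30.1 CPM. Mt1 was at 1389 CPM and Mt2 at 581 CPM in it. N1ICD replicate 1, with an astroglial sum of 3436 CPM, had less Mt1 than N1ICD replicate 3, with a sum of 235 CPM (695 against 855 CPM), but more Mt2 (141 against 103 CPM). The part of astroglia in these levels was not tested.

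That library also carried choroid plexus markers, with a sum over 7 genes of 4742 CPM against 3.83 and 5.68 CPM in the other N1ICD libraries and 603 CPM in MYC/Gfi1 replicate 1, the next highest library. Without N1ICD replicate 1, the log2 change of Mt2 in the N1ICD tumours was -3.07 against the MYC/Gfi1 and -3.37 against the S100b-cell tumours, larger than with it. MYC/Gfi1 replicate 2 held the highest astroglial sum, 4280 CPM of it from Aldoc. Its sums of neuron and mature granule cell markers were 2930 and 2778 CPM, against 683 and 128 CPM in MYC/Gfi1 replicate 1. Without MYC/Gfi1 replicate 2 the log2 change of Mt1 between N1ICD and MYC/Gfi1 tumours was -0.80. The summed level of 10 markers of microglia and macrophages was 549 and 764 CPM in the MYC/Gfi1 and 555 to 851 CPM in the S100b-cell libraries, against 116 to 405 CPM in the MYC/Otx2 and 160 to 234 CPM in the N1ICD libraries. Like Mt2, this sum was higher in every MYC/Gfi1 and S100b-cell library than in any other. The same split without overlap was seen in 3 other lists. Meningeal fibroblast markers summed to 202 to 355 CPM in the MYC/Gfi1 and 287 to 509 CPM in the S100b-cell libraries, against 45.9 to 191 CPM in the N1ICD and 35.3 to 93.7 CPM in the MYC/Otx2 libraries. Oligodendrocyte markers summed to 258 and 791 CPM and to 122 to 138 CPM, against 53.6 to 72.5 CPM and 31.9 to 116 CPM in the same order. Lymphocyte markers summed to 593 and 2885 CPM and to 6.02 to 38.1 CPM, against 0 to 2.09 CPM and 0.116 to 0.374 CPM. In the MYC/Otx2 libraries 6 of the 7 lymphocyte markers were at 0, all but Igha, and in the N1ICD libraries 4 were (Cd3e, Cd79a, Cd79b and Igha). Markers of pericytes and smooth muscle summed to 275 to 6750 CPM in the N1ICD libraries and to 54.4 to 209 CPM in all others. The part of these cell types in the levels of Mt1 and Mt2 was not tested.

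The neighbours of the cluster were examined because they were chosen by position and not by level, so they could be tested. Bbs2 (chromosome 8, 94067954 to 94098928), a gene of the primary cilium on the far side of Mt4, was at 2.84 to 6.90 CPM as a group mean and was called in 0 of 6 comparisons. Nup93 (94214564 to 94317227), a nuclear pore subunit that starts 34.24 kb beyond the end of Mt1, was at 258, 260 and 260 CPM with MYC/Otx2. It was at 235 and 102 CPM in the MYC/Gfi1, 133, 79.6 and 70.4 CPM in the S100b-cell and 57.9, 69.7 and 68.2 CPM in the N1ICD tumours. Its highest level was thus in the tumours with the lowest Mt1 and Mt2. Against MYC/Otx2, Nup93 was lower in N1ICD tumours by -1.99 ± 0.34 log2 (SE, edgeR adjusted p = 0.00410) and in S100b-cell samples by -1.46 ± 0.33 (SE, edgeR adjusted p = 0.0163). N1ICD tumours also had less of it than MYC/Gfi1 tumours, by -1.37 ± 0.36 (SE, edgeR adjusted p = 0.0373).

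**Figure D4:**
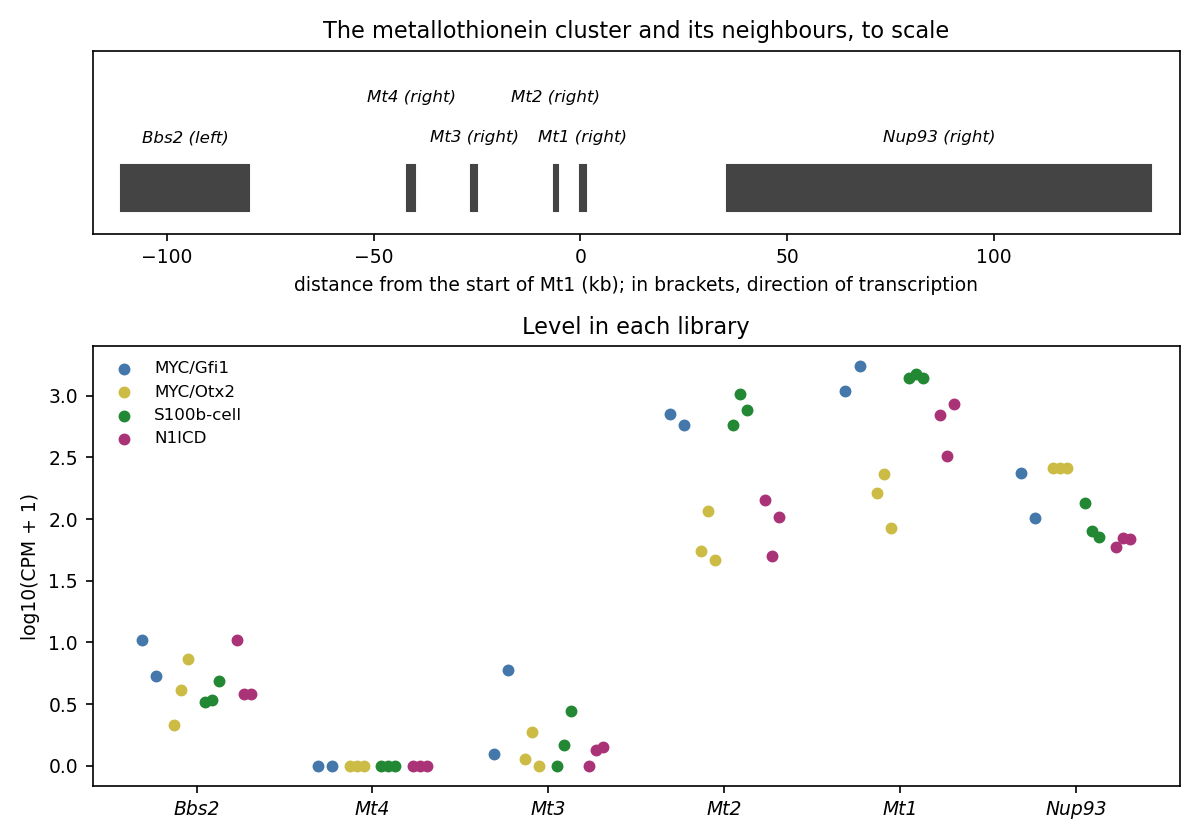
Upper panel, the extent of the metallothionein genes and their protein-coding neighbours against the distance from the start of Mt1 in kb, to scale; lower panel, log10(CPM + 1) of the same genes in each library (points, by group). Mt4 is at 0 in every library and Mt3 near it, Mt2 and Mt1 are lowest in the MYC/Otx2 libraries, and Nup93 is highest there at 258 to 260 CPM.

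Genes that move or bind zinc and copper, and other genes known as Mtf1 targets, were tested as the surroundings of the metallothioneins. All 41 such genes were listed, and 36 had enough counts to be tested. Between the N1ICD and MYC/Otx2 tumours 4 were higher, 5 lower and 27 were not called, 25.0% called against 21.8% of all genes. Between the S100b-cell and MYC/Otx2 tumours 4 were higher and 6 lower, 27.8% called against 17.9%. Between the N1ICD and MYC/Gfi1 tumours 2 were higher and 3 lower, 13.9% against 11.5%, and between MYC/Otx2 and MYC/Gfi1 tumours 1 was higher and 3 lower, 11.1% against 5.46%. The shares were near those of all genes in the N1ICD comparisons, and the lists were not tested as sets.

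Between the N1ICD and S100b-cell tumours, and between the S100b-cell and MYC/Gfi1 tumours, edgeR called 0 of the 36. The share of all genes called was 1.21% and 4.35%. At an unadjusted p under 0.05 there were 10 and 5 of the 36, beside 2844 and 3602 of the 15228 genes. DESeq2 called 4 and 3, beside 1367 and 2309 of all genes. The median log2 change of the 36 genes was 0.25 between N1ICD and MYC/Otx2 tumours and 0.04 between S100b-cell and MYC/Otx2 tumours, beside 0.14 and 0.17 over all genes tested. It was -0.18 between N1ICD and MYC/Gfi1 and 0.03 between MYC/Otx2 and MYC/Gfi1 tumours, beside -0.01 and -0.14.

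Among zinc importers, Slc39a9 was highest in the MYC/Otx2 tumours, at 115, 141 and 149 CPM. It was at 61.5 and 67.0 CPM in the MYC/Gfi1, 62.8, 53.3 and 47.9 CPM in the S100b-cell and 51.0, 41.5 and 55.6 CPM in the N1ICD tumours, none of which overlapped the MYC/Otx2 range. Against MYC/Otx2, Slc39a9 was lower in N1ICD tumours by -1.45 ± 0.21 log2 (SE, edgeR adjusted p = 0.00208) and in S100b-cell samples by -1.31 ± 0.21 (SE, edgeR adjusted p = 0.00403), and it was higher in the MYC/Otx2 than in the MYC/Gfi1 tumours by 1.07 ± 0.23 (SE, edgeR adjusted p = 0.0343). Slc39a9, like Mtf1, was thus highest in the tumours with the lowest Mt1 and Mt2. Slc39a11, another importer, was at 30.0 ± 12.8 CPM in the N1ICD tumours against 92.1 ± 21.6 CPM in the MYC/Otx2 tumours (SD, n = 3 each; edgeR adjusted p = 0.00756). Slc39a4, the importer of the intestinal epithelium, was at 1.41, 17.9 and 18.7 CPM with MYC/Otx2 (mean 12.7 ± 9.77 CPM, SD, n = 3). As group means it was at 0.530 to 1.10 CPM elsewhere, but MYC/Gfi1 replicate 2, at 1.74 CPM, lay above MYC/Otx2 replicate 1. Slc39a4 was called lower in the N1ICD tumours (edgeR adjusted p = 0.0166) and in the S100b-cell tumours (edgeR adjusted p = 0.0284). These calls were lost in 2 and 6 of 16 alternatives.

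Slc39a10, an importer at the plasma membrane, ran the other way. It was at 104, 66.9 and 75.1 CPM in the N1ICD and at 34.0 and 12.6 CPM in the MYC/Gfi1 tumours, higher by 1.81 ± 0.47 on the log2 scale (SE, edgeR adjusted p = 0.0352). Slc39a6 was lower in the S100b-cell than in the MYC/Otx2 tumours, at 25.6 ± 3.38 against 45.6 ± 4.79 CPM (SD, n = 3 each; edgeR adjusted p = 0.0362). Slc39a1, an importer not called by edgeR with all libraries, was at 55.6 to 59.6 CPM in the 4 groups as means. Without MYC/Gfi1 replicate 1 it was called in the 3 comparisons with the MYC/Gfi1 tumours. No importer was called higher against the MYC/Otx2 tumours, while 3 of the 12 tested were lower in the N1ICD and 3 lower in the S100b-cell tumours. That was 25% of the importers in each, near the 21.8% and 17.9% of all genes called in either direction. At an unadjusted p under 0.05 there were 4 importers in each of these comparisons, beside 5665 and 5308 of the 15228 genes.

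Among zinc exporters, Slc30a1, the exporter at the plasma membrane and itself a known Mtf1 target, was at 73.2, 75.4 and 55.2 CPM in the MYC/Otx2 and at 25.4, 28.5 and 23.7 CPM in the S100b-cell tumours. The difference was -1.39 ± 0.31 log2 (SE, edgeR adjusted p = 0.0156), opposite in sign to that of Mt1 and Mt2 in the same comparison. Slc30a1 was at 44.6 and 43.7 CPM in the MYC/Gfi1 tumours and at 69.9, 30.0 and 38.5 CPM in the N1ICD tumours, and was not called in another comparison with all libraries. Without N1ICD replicate 1 it was also called between N1ICD and MYC/Otx2 tumours. Slc30a4 was at 77.3 ± 12.0 CPM with MYC/Otx2 (SD, n = 3), and lower in the N1ICD tumours at 19.4 ± 9.56 CPM (SD, n = 3; edgeR adjusted p = 0.0155) and the S100b-cell tumours at 23.4 ± 5.83 CPM (SD, n = 3; edgeR adjusted p = 0.0284). Slc30a2 had 0 counts in all MYC/Otx2 libraries and group means of 5.42 CPM in the MYC/Gfi1 and 1.48 CPM in the S100b-cell tumours. Both were called higher (edgeR adjusted p = 0.0335 and 0.0285). These calls were lost in 7 and 6 of 16 alternatives, each without any 1 of the MYC/Otx2 libraries. Slc30a10, a manganese exporter, was called higher in the N1ICD than in the MYC/Otx2 tumours (edgeR adjusted p = 0.0330) through N1ICD replicate 1 at 90.5 CPM, the library with choroid plexus markers. The other N1ICD libraries held 3.14 and 2.84 CPM of it, and without replicate 1 the adjusted p was 0.309.

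Among genes that handle copper, Cp, which encodes the copper-carrying ferroxidase ceruloplasmin, followed Mt1 and Mt2 in being lowest in the MYC/Otx2 tumours. It was at 1.13, 4.11 and 1.73 CPM there, at 32.5 and 20.2 CPM in the MYC/Gfi1, 45.2, 14.7 and 34.2 CPM in the S100b-cell and 6.86, 16.7 and 13.4 CPM in the N1ICD tumours. Against MYC/Otx2, Cp was higher in S100b-cell samples by 3.74 ± 0.62 log2 (SE, edgeR adjusted p = 0.00518), higher with N1ICD by 2.399 ± 0.60 (SE, edgeR adjusted p = 0.0212), and lower in the MYC/Otx2 than in the MYC/Gfi1 tumours by -3.49 ± 0.65 (SE, edgeR adjusted p = 0.0214). Slc31a1, the copper importer, was at 96.6, 92.4 and 103 CPM with MYC/Otx2. It was lower in the N1ICD tumours at 36.9, 40.1 and 43.4 CPM (edgeR adjusted p = 0.0172) and in the S100b-cell tumours at 54.1, 45.0 and 44.8 CPM (edgeR adjusted p = 0.0416).

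N1ICD tumours also had less Slc31a1 than MYC/Gfi1 tumours (edgeR adjusted p = 0.0418), which were at 52.9 and 134 CPM. Without MYC/Gfi1 replicate 2, the library with 134 CPM, that adjusted p was 0.318. Ccs, the copper chaperone of superoxide dismutase, was at 30.6 ± 12.5 CPM in the N1ICD (SD, n = 3) and 71.02 ± 2.26 CPM in the MYC/Gfi1 tumours (SD, n = 2; edgeR adjusted p = 0.0456). Sod1 itself, the most abundant gene of the lists at 607 to 937 CPM as group means, and Atox1, at 63.9 to 133 CPM, were not called by edgeR with all libraries and TMM factors. Sod1 was called between N1ICD and MYC/Otx2 tumours with library totals alone. Atox1 was called between N1ICD tumours and each of MYC/Gfi1 and MYC/Otx2 without N1ICD replicate 1.

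Among the other genes known as Mtf1 targets, Pgf, which encodes placental growth factor, had the widest range. It was at 45.9, 107 and 45.9 CPM in the N1ICD tumours, at 14.9 and 6.10 CPM in the MYC/Gfi1, at 13.2, 5.05 and 7.90 CPM in the S100b-cell and at 0.848, 0 and 0.116 CPM in the MYC/Otx2 tumours. The N1ICD libraries were the highest and the MYC/Otx2 libraries the lowest of all. Against MYC/Otx2, Pgf was higher by 7.70 ± 1.00 log2 with N1ICD (SE, edgeR adjusted p = 0.00148) and by 4.77 ± 0.92 in S100b-cell tumours (SE, edgeR adjusted p = 0.00897), and lower in the MYC/Otx2 than in the MYC/Gfi1 tumours by -5.04 ± 0.96 (SE, edgeR adjusted p = 0.0234). The size of these folds rests on at most 6 counts of Pgf in a MYC/Otx2 library.

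Csrp1, a LIM-domain protein, was at 11.9, 21.1 and 7.74 CPM with MYC/Otx2 and was higher in the N1ICD tumours at 41.2, 127 and 32.5 CPM (edgeR adjusted p = 0.0391) and in the S100b-cell tumours at 39.7, 81.1 and 97.9 CPM (edgeR adjusted p = 0.0376). It is also a smooth muscle gene, and N1ICD replicate 2, with 127 CPM of it, held the highest pericyte and smooth muscle sum, 6750 CPM. Without that library the adjusted p for Csrp1 between N1ICD and MYC/Otx2 tumours was 0.142. Gclc, the catalytic subunit of glutathione synthesis, was at 85.7, 65.9 and 70.2 CPM in the N1ICD and 43.6 and 30.5 CPM in the MYC/Gfi1 tumours (edgeR adjusted p = 0.0477). Selenoh, a selenoprotein that the table lists under an older symbol, was at 68.5 to 115 CPM as group means, and Ndrg1, a stress-induced gene, at 17.4 to 80.9 CPM. Neither was called by edgeR with all libraries, but Ndrg1 was called between S100b-cell and MYC/Otx2 tumours by DESeq2 and without S100b-cell replicate 1 or N1ICD replicate 1.

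Some of these counts rest on few libraries. The count between N1ICD and MYC/Gfi1 tumours was 5 with all libraries, 0 without MYC/Gfi1 replicate 2, MYC/Otx2 replicate 2, S100b-cell replicate 2 or 3 or N1ICD replicate 2 or 3, and 8 without MYC/Gfi1 replicate 1. The count between S100b-cell and MYC/Gfi1 tumours was 9, and that between MYC/Otx2 and MYC/Gfi1 tumours also 9, without MYC/Gfi1 replicate 1. The differences of Slc39a9, Pgf and Cp between S100b-cell and MYC/Otx2 tumours, and those of Slc39a9, Slc39a11 and Pgf between N1ICD and MYC/Otx2 tumours, were called under all 16 alternatives tried. Between N1ICD and MYC/Gfi1 tumours, Gclc was called under 2 of 16, Ccs and Slc31a1 under 5, Slc39a11 under 6 and Slc39a10 under 7. Between S100b-cell and MYC/Otx2 tumours, Slc31a1 was called under 7 of 16 and Slc39a6 under 8. Csrp1 between N1ICD and MYC/Otx2 tumours and Slc39a9 between MYC/Otx2 and MYC/Gfi1 tumours were each called under 8.

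Oxidative stress induces metallothioneins, and targets of Nrf2, the factor of the antioxidant response, were tested as a readout of it. All 11 listed genes passed the filter. EdgeR called 1 between N1ICD and MYC/Gfi1, 1 between N1ICD and MYC/Otx2, 1 between S100b-cell and MYC/Gfi1 and 2 between MYC/Otx2 and MYC/Gfi1 tumours. That was 9.09%, 9.09%, 9.09% and 18.2% of the list, against 11.5%, 21.8%, 4.35% and 5.46% of all genes. Between N1ICD and S100b-cell and between S100b-cell and MYC/Otx2 tumours edgeR called 0 and 0, against 1.21% and 17.9% of all genes. At an unadjusted p under 0.05 there were 1 and 2 targets, beside 2844 and 5308 of the 15228 genes. DESeq2 called 0 and 2 targets there, beside 1367 and 4327 of all genes. The part of oxidative stress in the levels of Mt1 and Mt2 was not tested. Srxn1, which encodes sulfiredoxin, was at 26.8 and 279 CPM in the MYC/Gfi1 tumours and at 4.51 to 20.2 CPM in the other 9 libraries. It was called lower than in the MYC/Gfi1 tumours in the N1ICD, S100b-cell and MYC/Otx2 tumours (edgeR adjusted p = 0.0304, 0.0339 and 0.0239), and without MYC/Gfi1 replicate 2 these values were 0.491, 0.344 and 0.145.

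Gclm, the regulatory subunit of glutathione synthesis, was at 68.6 ± 9.67 CPM in the N1ICD and 40.9 ± 5.78 CPM in the MYC/Otx2 tumours (SD, n = 3 each; edgeR adjusted p = 0.0491). Txnrd1, thioredoxin reductase, was at 229 ± 16.9 CPM in the MYC/Otx2 (SD, n = 3) and 115 ± 26.8 CPM in the MYC/Gfi1 tumours (SD, n = 2; edgeR adjusted p = 0.0422). The calls of Gclm and Txnrd1 were each lost in 12 of the 16 alternatives tried. Prdx1, the most abundant gene of the list at 539 to 812 CPM as group means, was not called. The median log2 change of the list lay between -0.13 and 0.41 in the 6 comparisons.

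**Figure D5:**
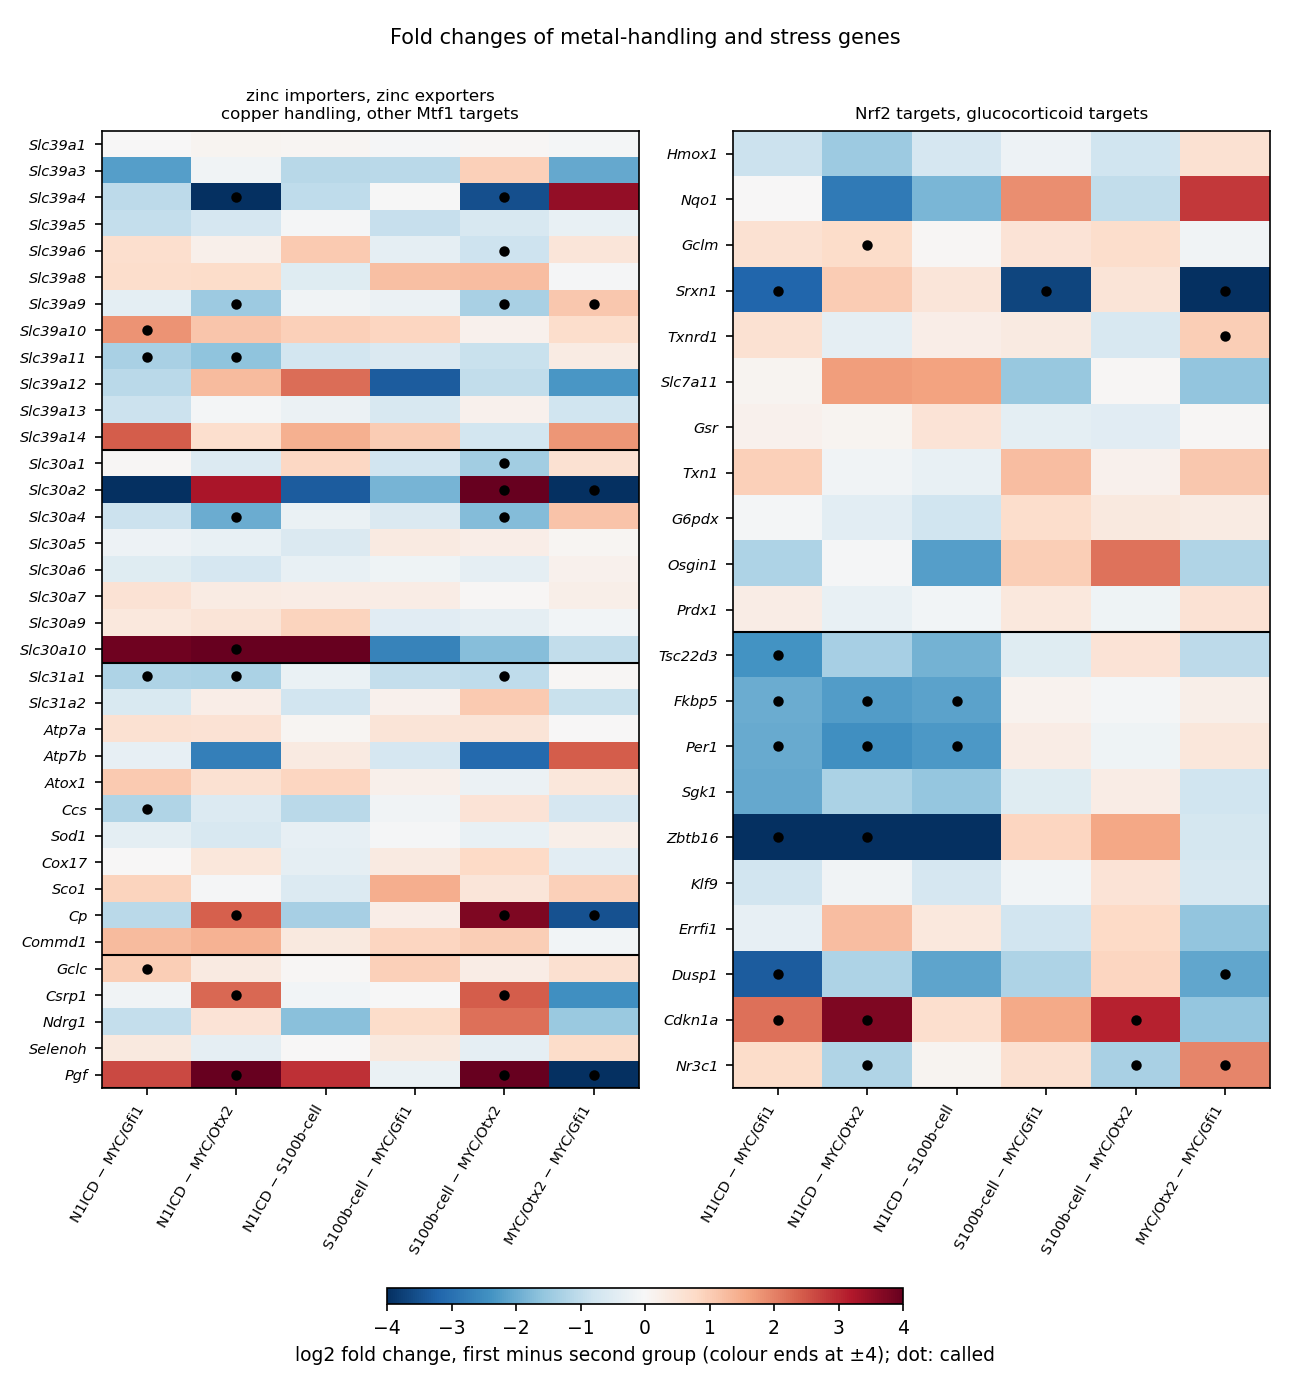
Log2 fold change (colour, first minus second group named, ending at ±4) of the tested genes for zinc and copper handling, the other Mtf1 targets, the Nrf2 targets and the glucocorticoid targets in the 6 comparisons; a dot marks edgeR adjusted p under 0.05. Calls in the metal lists (left) run in both directions, and in the glucocorticoid list (right, lower block) Fkbp5 and Per1 are lower in all 3 comparisons of the N1ICD tumours.

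Glucocorticoids also induce Mt1 and Mt2, and 10 genes known to respond to the glucocorticoid receptor, the receptor gene Nr3c1 among them, were tested. Between N1ICD and MYC/Gfi1 tumours 5 were lower and 1 higher. Between N1ICD and MYC/Otx2 tumours 4 were lower, the receptor gene Nr3c1 among them, and 1 higher. Between N1ICD and S100b-cell tumours 2 were lower and 0 higher. In this order 60%, 50% and 20% of the list were called, against 11.5%, 21.8% and 1.21% of all genes. The median log2 change of the list was -2.01, -1.25 and -1.72 in these comparisons, beside -0.01, 0.14 and -0.06 over all genes tested. These comparisons share the N1ICD libraries. Between S100b-cell and MYC/Gfi1 tumours 0 were called by edgeR, 2 had an unadjusted p under 0.05 and DESeq2 called 1. Of all 15228 genes, edgeR called 4.35% there, 3602 had an unadjusted p under 0.05 and DESeq2 called 2309. Between S100b-cell and MYC/Otx2 tumours 1 was higher and 1 lower, 20% against 17.9% of all genes. Between MYC/Otx2 and MYC/Gfi1 tumours 1 was higher and 1 lower, 20% against 5.46%. The median log2 change of the list was 0.55 and -0.74 in these 2 comparisons, beside 0.17 and -0.14 over all genes tested.

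Per1, a clock gene with a glucocorticoid response, was at 10.7, 6.97 and 7.30 CPM in the N1ICD tumours. It was at 31.7 and 35.6 CPM in the MYC/Gfi1, 57.5, 40.2 and 40.3 CPM in the MYC/Otx2 and 26.4, 44.3 and 52.9 CPM in the S100b-cell tumours, with no overlap. Per1 was lower in the N1ICD tumours by -2.02 ± 0.36 log2 against the MYC/Gfi1 (SE, edgeR adjusted p = 0.0111), by -2.47 ± 0.34 against the MYC/Otx2 (SE, edgeR adjusted p = 0.00178) and by -2.31 ± 0.34 against the S100b-cell tumours (SE, edgeR adjusted p = 0.0187). The last of these was lost without S100b-cell replicate 2 or 3.

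Fkbp5, a chaperone of the receptor that the receptor itself induces, was at 7.29, 9.76 and 10.96 CPM in the N1ICD tumours. It was at 56.8 and 17.9 CPM in the MYC/Gfi1, 36.02, 55.6 and 39.4 CPM in the MYC/Otx2 and 32.1, 43.4 and 48.9 CPM in the S100b-cell tumours, again with no overlap. The log2 differences were -1.997 ± 0.46, -2.22 ± 0.43 and -2.15 ± 0.43 in the same order (SE, edgeR adjusted p = 0.0241, 0.00737 and 0.0459). The call against the MYC/Gfi1 tumours was lost without MYC/Gfi1 replicate 1, at an edgeR adjusted p of 0.139, and without N1ICD replicate 1, 2 or 3, and that against the S100b-cell tumours without any of 9 of the 11 libraries.

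Dusp1, a phosphatase of MAP kinases, was at 4.86 ± 1.42 CPM in the N1ICD (SD, n = 3) and 49.2 ± 4.54 CPM in the MYC/Gfi1 tumours (SD, n = 2). The log2 difference was -3.33 ± 0.51 (SE, edgeR adjusted p = 0.00682). Dusp1 was also lower in the MYC/Otx2 than in the MYC/Gfi1 tumours (edgeR adjusted p = 0.0386), a call lost in 7 of 16 alternatives. Tsc22d3, which encodes the leucine zipper protein GILZ, was at 12.9, 5.93 and 9.74 CPM in the N1ICD and 44.1 and 54.6 CPM in the MYC/Gfi1 tumours (edgeR adjusted p = 0.0254). Cdkn1a, the cell cycle inhibitor p21 and a target of p53 too, ran the other way, at 276 ± 49.6 CPM in the N1ICD and 20.5 ± 9.54 CPM in the MYC/Otx2 tumours (SD, n = 3 each; edgeR adjusted p = 0.00154). In the S100b-cell tumours Cdkn1a was at 173 ± 53.8 CPM (SD, n = 3). It was called higher there than in the MYC/Otx2 tumours, under all 16 alternatives.

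Nr3c1, the receptor, was highest where Mt1 and Mt2 were lowest, at 58.5, 70.5 and 75.1 CPM in the MYC/Otx2 tumours. It was at 14.0 and 21.4 CPM in the MYC/Gfi1, 27.3, 25.0 and 30.4 CPM in the S100b-cell and 38.2, 36.3 and 13.8 CPM in the N1ICD tumours. Nr3c1 was higher in the MYC/Otx2 than in the MYC/Gfi1 tumours (log2 1.95 ± 0.43, SE, edgeR adjusted p = 0.0350) and lower in the N1ICD and S100b-cell than in the MYC/Otx2 tumours (edgeR adjusted p = 0.0398 and 0.0342). These 3 calls of Nr3c1 held under 8, 7 and 9 of 16 alternatives and were lost without any 1 of the MYC/Otx2 libraries. Klf9, the most abundant gene of the list at 357 to 614 CPM as group means, was not called by edgeR with TMM factors. It was called between the N1ICD and MYC/Gfi1 tumours by DESeq2 and with library totals alone. The part of the glucocorticoid response in the levels of Mt1 and Mt2 was not tested.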

How the data were processed

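RNA from 11 tumours was made into 3′ mRNA libraries with molecular identifiers added (QuantSeq FWD), per the labels' protocols. The authors deposited a table of read counts per gene. The submitters' processing notes name STAR 2.4.1d, HTSeq 0.6.1 and mm10. How the identifiers were used, the strand setting and the annotation release were not given in the sources used here. Samples were grouped by their titles. Groups were compared with edgeR 4.0.16 (R 4.3.3, TMM factors, filterByExpr, quasi-likelihood test, 4 groups in 1 fit), and p-values were adjusted by Benjamini-Hochberg over all 15228 genes tested, with a call at 0.05. CPM was computed over TMM-scaled totals and log2 CPM with a prior count of 2. P-values measure the spread between libraries. Scripts were checked on simulated data.

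The members and the gene lists were chosen with earlier results of these data known. Named were the members and Mt4; from each list and comparison the called genes, up to 4 with the smallest p, and up to 2 uncalled genes with the highest mean; the 5 genes most like each member; and the cluster's neighbours Bbs2 and Nup93, taken by position. Alternatives were RLE factors, library totals alone, no low-count filter, DESeq2 1.42.0, the replicate number as a block and leaving out each library; for the Nrf2 and glucocorticoid lists, and for single called genes, they were added after the data were seen. Promoters came from RefSeq tables of GRCm38.p6, in which all members matched.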

Additional observations from a re-analysis of the deposited data

How the results depend on the processing

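Counts of called genes are given in the order N1ICD against MYC/Gfi1, MYC/Otx2 and S100b-cell tumours, S100b-cell against MYC/Gfi1 and MYC/Otx2 tumours, and MYC/Otx2 against MYC/Gfi1 tumours. With all libraries they were 5, 9, 0, 0, 10 and 4 for the 36 genes of metal handling and Mtf1 targets. They were 1, 1, 0, 1, 0 and 2 for the Nrf2 targets and 6, 5, 2, 0, 2 and 2 for the glucocorticoid targets. Of all genes, 11.5%, 21.8%, 1.21%, 4.35%, 17.9% and 5.46% were called in this order. Leaving out 1 library at a time gave 0 to 8, 4 to 11, 0 to 1, 0 to 9, 3 to 12 and 0 to 9 metal genes, 0 to 2, 0 to 3, 0, 0 to 2, 0 to 2 and 0 to 3 Nrf2 targets, and 2 to 6, 3 to 5, 0 to 2, 0, 1 to 2 and 0 to 2 glucocorticoid targets. The metal count of N1ICD against MYC/Otx2 tumours was lowest without MYC/Otx2 replicate 3 and highest without MYC/Gfi1 replicate 1, and that of S100b-cell against MYC/Otx2 tumours lowest without MYC/Otx2 replicate 2 and highest without N1ICD replicate 1. That of MYC/Otx2 against MYC/Gfi1 tumours was 0 without MYC/Otx2 replicate 3.

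DESeq2 called 9 metal genes between N1ICD and MYC/Gfi1, 4 between N1ICD and S100b-cell and 3 between S100b-cell and MYC/Gfi1 tumours, 2 Nrf2 targets between N1ICD and MYC/Otx2 and 2 between S100b-cell and MYC/Otx2 tumours, and 5 glucocorticoid targets between N1ICD and S100b-cell and 1 between S100b-cell and MYC/Gfi1 tumours. Of all genes, DESeq2 called 3369 between N1ICD and MYC/Gfi1, 4653 between N1ICD and MYC/Otx2 and 1367 between N1ICD and S100b-cell tumours. It called 2309 between S100b-cell and MYC/Gfi1 and 4327 between S100b-cell and MYC/Otx2 tumours. RLE factors gave 1 Nrf2 target between S100b-cell and MYC/Otx2 tumours. Without the low-count filter there were 4 glucocorticoid targets between N1ICD and S100b-cell tumours and 1 Nrf2 target between MYC/Otx2 and MYC/Gfi1 tumours, where library totals alone also gave 1. The cause of these shifts was not tested.

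The replicate numbers do not pair the samples: deviations of same-numbered libraries correlated at -0.17 to 0.19, and in no comparison did every pair pass 0.1. With the replicate block, 0 metal genes were called between N1ICD and MYC/Gfi1 and 0 between MYC/Otx2 and MYC/Gfi1 tumours, and 0 Nrf2 targets between N1ICD and MYC/Gfi1, N1ICD and MYC/Otx2, and S100b-cell and MYC/Gfi1 tumours, with 1 between MYC/Otx2 and MYC/Gfi1 tumours. The block gave 3 glucocorticoid targets between N1ICD and MYC/Otx2 and 0 between N1ICD and S100b-cell tumours. It gave 1 between S100b-cell and MYC/Otx2 and 1 between MYC/Otx2 and MYC/Gfi1 tumours. Of all genes, the block left 789, 2213, 59, 102, 1904 and 209 called, in the order of comparisons given above.

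Of the members' fold changes under these alternatives, 358 kept their side of the threshold, 8 passed it and 7 fell short of it. A further 4 changed sign with a shift of at least the SE, all 4 of Mt3. The 358 include sign changes with a shift smaller than the SE. Among these were folds between S100b-cell and MYC/Gfi1 tumours when 1 library was left out. There Mt1 ran from -0.24 to 0.41 and Mtf1 from -0.08 to 0.13. The 4 folds of Mt3 were 0.13, 1.64 and 0.51 for N1ICD, S100b-cell and MYC/Otx2 against MYC/Gfi1 tumours without MYC/Gfi1 replicate 2. The last was 1.75 for N1ICD against MYC/Otx2 tumours without MYC/Otx2 replicate 2. Of the fold changes of other called genes, 547 stayed called and 252 did not, all in the same direction. Group means of the members were also taken over whole library totals and over totals without mitochondrially encoded genes. Of these means, 26 moved by less than the group's SD and 6 by at least that. The MYC/Gfi1 group has 2 libraries, and the N1ICD libraries, the shallowest, limit what can be seen of Mt3.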
